A study of Equus caballus with 25 samples.

Results

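The endometrium of 5 cycling mares was compared between day 8 of the oestrous cycle, the middle of the luteal phase, and day 0, the day of ovulation. The 10 arrays of these days were chosen by their labels from the 25 arrays of a study that sampled the same mares on 5 days of the cycle. The mares were Bavarian Warmbloods with normal cycles, and the labels name no treatment. Each day 0 array holds RNA of 1 transcervical biopsy taken at oestrus, with ovulation followed by palpation and ultrasound, and each day 8 array holds RNA of 1 dioestrous biopsy of the same mare. Biopsies were collected over several cycles, with at least 9 days between biopsies. Days 0 and 8 of 1 cycle lie closer than that, so a pair shares the animal but not the cycle. The labels give neither the age of the mares nor their hormone levels.

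The endometrium is the inner lining of the uterus, made of a surface epithelium, branched glands, a stroma of fibroblasts, vessels and immune cells. Around ovulation it stands at the end of a period ruled by oestrogen from the follicle, and receptors for oestrogen are plentiful. After ovulation the corpus luteum forms and releases progesterone, under which the glands turn to secretion of proteins and lipids that nourish an early conceptus. In the mare the conceptus moves freely through the uterus during this time, and glandular products such as the lipocalin P19 reach it through its capsule. Since a biopsy is whole tissue, fewer cells of a type and less RNA per cell cannot be told apart in any value that follows.

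RNA was labelled with 1 dye (Cy3) and hybridised to a horse microarray with 43603 probes, of which 35771 were tested because, on 1 or more days of the cycle, at least 4 arrays read them well above background. The 75th percentile of signal lay between 694 and 1555 at day 0 and between 1328 and 1672 at day 8. On the log2 scale it was 10.03 ± 0.52 at day 0 and 10.56 ± 0.13 at day 8 (SD, n = 5), and was higher at day 8 in 5 of 5 mares. The difference of 0.54 ± 0.41 had an exact paired sign-flip p of 0.0625 (two-sided), the smallest that 5 pairs allow. Each array was set to its own 75th percentile, so a level of 0 means the signal of that percentile and a level of 1 means a signal 2 times as bright. Between 70.3% and 83.2% of spots on each of the 10 arrays were well above background, and 0 spots were saturated. Most probes are known only by a transcript number, and 514 genes with a symbol could be tested. The lists of genes below were put together with earlier results of these arrays known. A list is described by how many members passed the test and by its median.

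From day 0 to day 8, 4334 probes rose and 4985 fell at an adjusted p under 0.05 (limma, paired by mare, Benjamini-Hochberg over all 35771 tested probes). This is 26.1% of the tested probes, 12.1% higher and 13.9% lower. The median change of all tested probes was −0.03 on the log2 scale, with a median standard error (SE) of 0.26. Among probes that rose the median change was 1.10, and among those that fell it was −0.88. In this fit the rises reached further than the falls. At 8-fold or more there were 254 rises and 123 falls, at 16-fold or more 134 and 53, and at 64-fold or more 30 and 7 (20 and 5 targets). Such counts were not made with other background corrections. The part of the dimmer day 0 arrays in them was not tested. Of the 9319 called probes, 8180 (87.8%) moved in the same direction in all 5 mares, against 33.0% of all tested probes, and for 5907 the lowest value of one day lay above the highest of the other. Over all tested probes 18.4% had days that did not overlap in this way. The probes were called on these same values, so high shares among the called follow in part from the selection. The spread between the 5 arrays of a day was wider at ovulation, with a median SD of 0.44 at day 0 and 0.29 at day 8. The larger SD was at day 0 in 72.4% of probes. Each mare gave 1 array per day, and array brightness also varied more at day 0 (SD 0.52 against 0.13). Differences between mares and between arrays cannot be told apart in this spread.

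**Figure D1:**
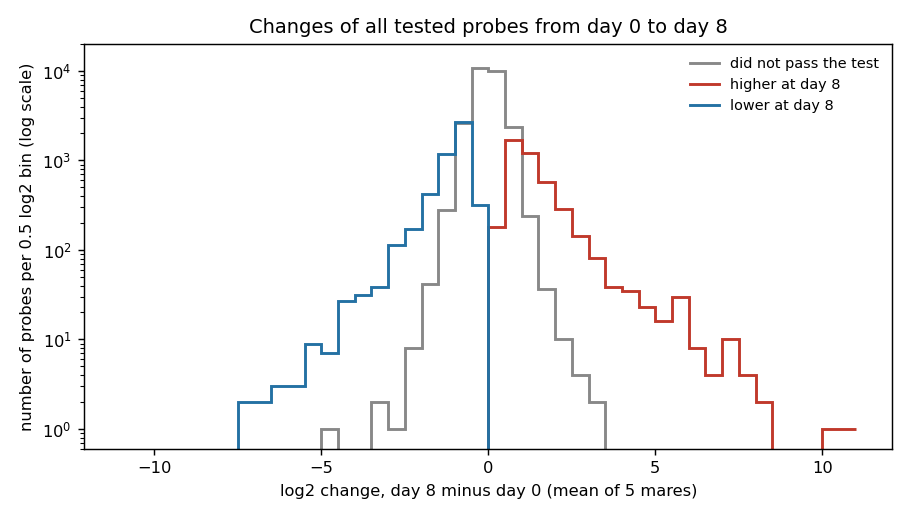
Number of probes (log axis) by their log2 change from day 0 to day 8 (x axis, mean of 5 mares, bins of 0.5), drawn as separate lines for probes called higher at day 8, called lower, and not passing the test. The line of rises extends past 10 and that of falls past −7, with 30 rises and 7 falls of at least 64-fold.

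The count depended on the mares and on the slides that held the arrays. It was 5952 without mare 2 and 6106 without mare 5, and between 7082 and 9094 without any one of the other 3 mares. When a mare was left out and the probes were called on the other 4, that mare moved in the same direction at 96.2%, 94.7%, 92.0%, 85.1% and 95.9% of them for mares 1 to 5. Over all tested probes the same shares lay between 64.3% (mare 4) and 74.3% (mare 5). The 10 arrays lay on 7 slides, and only 2 of these slides held both days. With the slide as a further block the count was 2422, and 2078 of these were among the 9319. With the brightness of each array as a covariate it was 8493, and with normexp background correction 8511, of which 34.4% were higher against 46.5% above. The slide that held both biopsies of mare 5 held arrays of that mare only. Leaving it out gave the same 6106 calls and 95.9% as leaving out mare 5, and is no separate check. The other slide held the day 0 biopsy of mare 1 and the day 8 biopsy of mare 4. Of the 5880 probes called without this slide, 95.3% differed in the called direction on it.

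Of the 514 named genes 157 were called (30.5%), with 51 higher (9.92%) and 106 lower (20.6%), and their median change was −0.20. These shares are the background for the counts of each list below. The days did not overlap in 105 of the 514 (20.4%). The 85 genes followed here by a stated rule include 76 of these calls. All but 1 of the 76, INHA, kept their sign under each alternative setting tried. With the slide block 27 of the 76 kept their call: CYP3A89, CYP3A97, P19, LGB1, GPX3, FST, HK2, PLIN2, CTTNBP2, SLC11A1, FAM133B, GJB1, PGRMC1, PTGER2, PTGES, SOD1, COMP, TPSB2 and VCAM1, which rose, and MMP3, CLEC3A, MYH7, RND3, CXCL10, GNLY, SCN4A and TXN, which fell. The 49 that lost it include ESR1, INHBA, MMP9, CXCL6, CXCL8, DCN and PLA2G4A. In both slides that held the 2 days, 73 of the 76 differed in the called direction. The arrays of these slides also went into the calls, so this is not a separate test.

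The 2 largest changes were those of 2 probes of LOC100061179, a protein-coding gene that RefSeq lists by number only, which is not among the 514 named genes and was picked out after its values were seen. The probe with the brighter mean read −8.69, −5.74, −6.64, −7.52 and −8.80 in mares 1 to 5 at day 0 and 3.09, 3.01, 2.83, 2.97 and 1.32 at day 8. At day 0 it was well above background in 1 of 5 mares and at day 8 in all 5, and mare 5 was the lowest on both days. The rise was 10.12 ± 1.0 (adjusted p = 1.0e-06), and between 9.62 and 10.62 when an array or a mare was left out. With normexp it was 6.64. The other probe was at background on all 5 day 0 arrays and rose by 10.50 ± 0.98, at least 491-fold. Next in size were transcripts with no gene name here. The probe of ENSECAT00000016458 rose by 8.48 ± 0.58 (at least 164-fold) and that of ENSECAT00000002160 by 8.26 ± 0.54 (at least 116-fold), both at background on all 5 day 0 arrays. At the other end, 2 probes of ENSECAT00000015557 fell, with changes of −7.26 ± 0.66 and −7.24 ± 0.62 (at least 79.8-fold and 88.8-fold), both at background on all 5 day 8 arrays. A further probe of this transcript changed by −6.69 ± 0.64 and was well above background on 1 day 8 array. Apart from that further probe, the probes of these 3 numbered transcripts were chosen as the largest called rises and falls with 1 direction in all 5 mares. Their agreement between mares follows from that choice.

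ESR1, the oestrogen receptor, was lower in the luteal phase, and PGRMC1, a membrane protein that associates with progesterone binding, was higher. ESR1 levels were 7.02, 7.48, 7.01, 6.86 and 7.25 in mares 1 to 5 at day 0 and 6.12, 5.82, 5.89, 6.18 and 6.24 at day 8. The lowest value at day 0 lay above the highest at day 8. The fall was 1.07 ± 0.26 (SE, n = 5 pairs, limma adjusted p = 0.00549). Of 5 other ESR1 probes, 5 had the same sign and 0 passed, with changes from −0.32 to −0.27. The ESR1 call ended without mare 2 (adjusted p = 0.058) and with scan day as a block or quantile normalization, and with the latter the change was −0.65 (adjusted p = 0.0689). PGRMC1 was at 4.39, 5.40, 4.80, 4.79 and 4.79 at day 0 and at 5.81, 6.04, 6.55, 5.97 and 6.28 at day 8, a rise of 1.30 ± 0.20 (adjusted p = 0.000111). The days did not overlap, and the second PGRMC1 probe passed as well. IGF1, a growth factor that oestrogen induces in the uterus, did not pass (0.43 ± 0.40, adjusted p = 0.475). These 3 were the members of the list of steroid receptors and their targets with a tested probe, and their median change was 0.43.

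Among 11 tested genes of uterine secretory proteins 3 rose, 2 fell and 6 did not pass (median −0.38). P19, the uterine lipocalin that carries small lipids to the conceptus, had levels of 2.69, 4.33, 3.91, 4.06 and 3.31 at day 0 and of 7.53, 8.02, 7.73, 7.77 and 7.68 at day 8. Every mare was higher at day 8, and the day 8 values lay close together, at 7.75 ± 0.18 (SD, n = 5) against 3.66 ± 0.66 at day 0. The rise was 4.09 ± 0.48, or 17-fold (adjusted p = 7.19e-06). LGB1, a beta-lactoglobulin and thus another lipocalin, read −9.23, −7.79, −8.41, −8.77 and −8.57 at day 0, where 0 of 5 arrays read it well above background. At day 8 it was well above background on all 5, at −4.16, −3.97, −3.71, −3.61 and −3.44. A bound of its rise was computed against the lowest signal well above background on each day 0 array, which gave at least 11.5-fold (fitted change 4.78 ± 0.48, adjusted p = 1.20e-06). With normexp the LGB1 change was 0.84. LGB1 was the only named gene among 76 probes (65 targets) that were at background on all 5 arrays of day 0 and above it on all 5 of day 8.

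GPX3, a secreted glutathione peroxidase, rose by 1.98 ± 0.37 (adjusted p = 0.000612), from −1.28, −0.92, −1.41, −2.84 and −3.10 to 0.17, 0.49, 0.09, −0.38 and −0.04. The days did not overlap although mares 4 and 5 began lowest, and 5 of 5 other GPX3 probes passed in the same direction. Clusterin (CLU), a secreted chaperone, fell by 1.23 ± 0.22 (adjusted p = 0.000443), with ranges of 5.13 to 6.85 at day 0 and 4.83 to 5.30 at day 8 that overlapped. The light chain of class I histocompatibility molecules, B2M, fell by 0.70 ± 0.18 (adjusted p = 0.00665), a call that ended without mare 5 (adjusted p = 0.0516). The kallikreins KLK1 (−0.38) and KLK1E2 (−1.07), retinol-binding protein RBP4 (−0.78), transferrin TF (−0.36), CRISP3 (−0.51) and GM2A (0.16) did not pass.

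Cytochromes P450 and their redox partner had 4 of 7 tested members higher, 0 lower and a median of 1.57. Of the 514 named genes 9.92% were called higher. CYP3A89, of the family that oxidises steroids and drugs, was at −6.33, −6.10, −6.28, −6.73 and −6.05 at day 0 and at −1.35, −0.74, 0.76, −0.18 and 0.31 at day 8. All day 8 values lay far above all day 0 values, and the rise of 6.06 ± 0.46 (adjusted p = 9.33e-08) was 66.6-fold. The day 0 reading of mare 2 was at background, and with normexp the CYP3A89 change was 3.79. Its relative CYP3A97 was well above background on 1 of 5 arrays at day 0 and on 5 of 5 at day 8. CYP3A97 went from −9.29, −8.06, −9.09, −9.20 and −6.20 to −4.43, −3.31, −2.16, −2.62 and −3.16, a fitted change of 5.23 ± 0.58 (adjusted p = 3.89e-06). Its size rests on day 0 readings at background, and with normexp the CYP3A97 change was 1.46. Members of this family are close in sequence, and whether the probes also bind transcripts of each other was not tested.

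CYP2E1, which oxidises small molecules such as ketones and alcohols, read −5.75, −5.10, −5.00, −5.09 and −7.23 at day 0 and −2.10, −1.94, −3.25, −0.95 and −3.77 at day 8. The rise of 3.23 ± 0.82 (adjusted p = 0.00683) varied between mares, from the smallest step in mare 3 to the largest in mare 4, and 4 of 4 other CYP2E1 probes passed. With normexp background correction the CYP2E1 change was 1.67 (adjusted p = 0.0628). POR, the reductase that feeds electrons to these enzymes, rose by 1.57 ± 0.32 (adjusted p = 0.00146). CYP2C92 (0.31), CYP2D50 (0.42) and CYP2A13 (0.57) did not pass. Of 10 tested genes of sterol and steroid metabolism 1 passed (median −0.05). This was HSD3B2, an enzyme that forms progesterone from pregnenolone, which rose by 2.32 ± 0.48 (adjusted p = 0.00156). It was above background on 3 of 5 day 0 arrays, and with normexp the HSD3B2 change was 0.84 (adjusted p = 0.0588). Aromatase, CYP19A1, had 1.25 ± 0.48 (adjusted p = 0.0638), and CYP17A1 (−0.52), CYP11A1 (−0.44), STAR (0.27) and HSD11B2 (0.49) did not pass either.

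In the activin system both the ligand subunit and its binding protein rose. FST (follistatin, which binds and neutralises activin) was at 0.49, 0.91, 0.63, 0.45 and 0.70 at day 0 and at 3.45, 3.09, 3.30, 3.30 and 3.16 at day 8. Both days were tight across mares and lay well apart, and the rise was 2.62 ± 0.19, or 6.16-fold (adjusted p = 4.04e-08). INHBA, the beta A subunit that activin A and inhibin A share, read 0.39, 0.16, 2.96, 2.58 and 1.91 at day 0 and 3.71, 3.90, 4.32, 3.97 and 3.77 at day 8. Mares 1 and 2 began far lower than the other 3, and all 5 ended near one level, so the INHBA rise of 2.33 ± 0.50 (adjusted p = 0.0019) differed in size between mares. Each of the 3 other INHBA probes passed in the same direction. INHA, the alpha subunit of inhibin, had a change of 0.96 ± 0.27 (adjusted p = 0.0119), but with normexp it was −0.013 (adjusted p = 0.972), and on the slide with mares 1 and 4 it was −0.05. Of 9 tested growth factors and binding proteins 3 rose and 3 fell (median 0.43). BDNF (−1.29 ± 0.41), a neurotrophin, IGF2 (−0.81 ± 0.26), an insulin-like growth factor, and MET (−0.77 ± 0.28), the receptor of hepatocyte growth factor, were the falls. TGFB1 (0.67, adjusted p = 0.0746) and MSTN (−0.23) did not pass.

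Genes of prostaglandin signalling moved in both directions. Of 10 tested, 2 rose, 2 fell and 6 did not pass (median −0.06). PLA2G4A, the phospholipase that frees arachidonic acid for prostaglandin synthesis, was at 0.35, 0.28, 0.39, −0.45 and −0.0014 at day 0 and at −2.17, −2.18, −1.67, −2.32 and −1.84 at day 8. It fell by 2.15 ± 0.29 (adjusted p = 2.79e-05) in all 5 mares with no overlap, and the second PLA2G4A probe passed too. The secreted phospholipase PLA2G2A fell by 1.21 ± 0.42 (adjusted p = 0.0412). PTGER2, a receptor of prostaglandin E2, rose from −0.05, 0.76, 0.61, 0.77 and 0.35 to 2.28, 2.15, 2.80, 2.70 and 2.63, by 2.02 ± 0.37 (adjusted p = 0.000518). PTGES, the synthase of prostaglandin E2, rose from 0.76, 0.65, 0.46, −0.65 and 0.41 to 2.05, 1.96, 1.59, 1.58 and 1.78, by 1.46 ± 0.37 (adjusted p = 0.00703). For both genes the days did not overlap, with mare 4 lowest in PTGES at day 0, and all other probes passed in the same direction (5 of PTGER2, 4 of PTGES). PTGS2, the inducible cyclooxygenase, had −0.09 ± 0.47 (adjusted p = 0.917), the receptor of prostaglandin F2 alpha (PTGFR) had 0.45 ± 0.37 (adjusted p = 0.414) and HPGD, which inactivates prostaglandins, had −0.74 ± 0.30 (adjusted p = 0.0778).

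**Figure D2:**
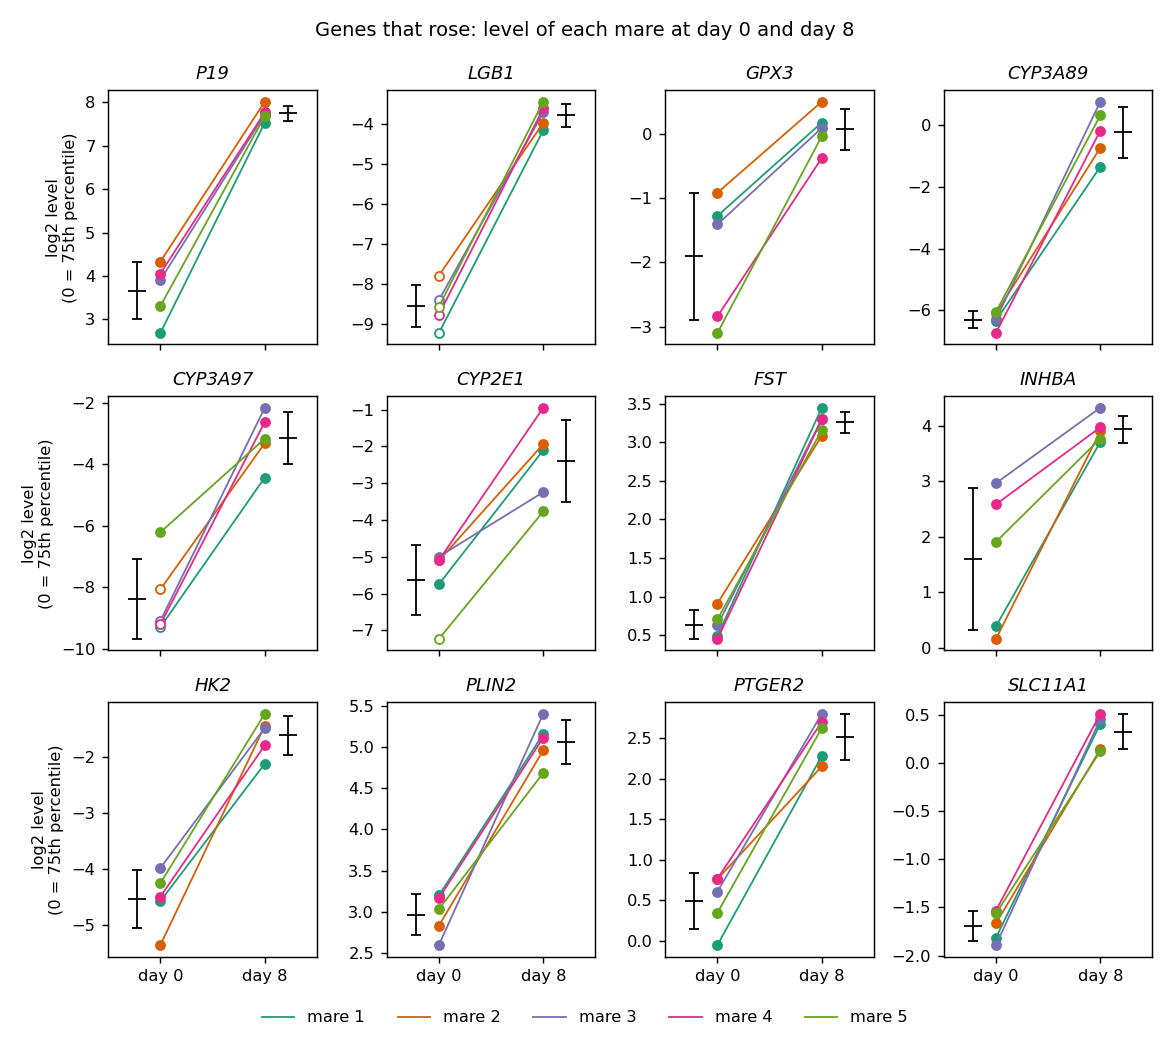
Log2 level relative to each array's 75th percentile (y axis, scale differs by panel) at day 0 and day 8 for 12 genes that rose, with 1 line for each of the 5 mares and filled points where the spot was well above background. Black marks give mean ± SD (n = 5). In every panel the 2 days do not overlap, and LGB1 is the gene with open points on all 5 arrays of day 0.

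Entry of glucose into glycolysis, storage of lipid and transport of iron each had a gene that rose by at least 4-fold in the main analysis. HK2, the hexokinase that phosphorylates glucose, was at −4.58, −5.36, −3.99, −4.50 and −4.26 at day 0 and at −2.13, −1.45, −1.49, −1.80 and −1.24 at day 8, a rise of 2.91 ± 0.30 (adjusted p = 1.83e-06). Of 17 tested genes of sugar and energy metabolism 3 rose and 1 fell (median −0.04). The others that rose were LDHB, a lactate dehydrogenase subunit (0.66 ± 0.18, adjusted p = 0.00999), and BSG, a chaperone of lactate carriers (0.47 ± 0.15, adjusted p = 0.0265). PPARGC1A, a coactivator that drives mitochondrial genes, fell by 1.49 ± 0.39 (adjusted p = 0.0087). PLIN2, the coat protein of lipid droplets, went from 3.20, 2.83, 2.60, 3.17 and 3.03 to 5.16, 4.96, 5.40, 5.11 and 4.69, by 2.10 ± 0.20 (adjusted p = 7.41e-07). Each mare was higher at day 8 in both HK2 and PLIN2, with no overlap. With normexp the HK2 change was 1.93 and the PLIN2 change 2.16. CPT1A, the gate of fatty acid oxidation in mitochondria, rose by 1.30 ± 0.27 (adjusted p = 0.00158), which made 2 of 3 lipid genes (median 1.30). GM2A did not pass.

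SLC11A1, a metal ion transporter of phagocytic vesicles, had levels of −1.81, −1.66, −1.89, −1.53 and −1.56 at day 0 and of 0.41, 0.14, 0.46, 0.51 and 0.12 at day 8. The mares were close together on both days, and the rise was 2.02 ± 0.19 (adjusted p = 4.86e-07). With normexp the SLC11A1 change was 1.85. FTL, the light chain of the iron store ferritin, fell by 0.98 ± 0.18 (adjusted p = 0.000497), and the transferrin receptor TFRC (0.94 ± 0.52) and TF (−0.36 ± 0.29) did not pass. Of 7 tested antioxidant and stress genes SOD1, a superoxide dismutase, rose by 1.43 ± 0.18 (adjusted p = 1.49e-05) beside GPX3, and TXN, thioredoxin, fell by 0.59 ± 0.16 (adjusted p = 0.00916). The remaining 4, among them SOD2 (0.53) and HSPA8 (0.15), did not pass (list median 0.22).

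Among proteases of matrix turnover, MMP3 (stromelysin) was lower at day 8 in every mare. MMP3 read −4.37, −3.88, −4.42, −0.62 and −4.02 at day 0, where mare 4 lay far above the others, and −9.35, −8.95, −9.59, −9.56 and −9.01 at day 8. It was well above background on all 5 arrays of day 0 and on none of day 8, the only named gene among 15 probes (12 targets) with that pattern. It was at least 23.6-fold lower at day 8, and at least 14.4-fold lower without the day 0 array of mare 4 (fitted change −5.83 ± 0.67, adjusted p = 5.72e-06, and −5.05 without that array). With normexp the MMP3 change was −2.05. MMP9, a gelatinase, went from −3.37, −2.20, −2.59, −4.16 and −1.81 to −5.45, −6.07, −5.05, −6.22 and −5.24, a fall of 2.78 ± 0.45 (adjusted p = 0.000186) with no overlap. Of 7 tested proteases and inhibitors 2 fell and 2 rose (median −0.70), the rises being the inhibitor TIMP3 (0.74 ± 0.26, adjusted p = 0.0395) and BSG, which induces these proteases. MMP13 (−1.97 ± 0.92, adjusted p = 0.125) and TIMP1 (−0.70 ± 0.31, adjusted p = 0.109) did not pass. MMP26, a small matrix protease that is not on the list and was named after its value was seen, rose by 1.87 ± 0.33 (adjusted p = 0.000406), a call that ended with the slide block (adjusted p = 0.128).

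Of 10 tested genes of the extracellular matrix 5 fell and 1 rose (median −0.96), against 20.6% of the 514 named genes that fell. CLEC3A, a lectin of cartilage matrix, fell below background on all 5 arrays of day 8, from −3.52, −4.21, −4.64, −7.11 and −5.03 to −9.15, −8.82, −8.52, −9.45 and −8.78. Mare 4 was already not above background at day 0, and the bound was at least 8.51-fold (fitted change −4.04 ± 0.59, adjusted p = 5.92e-05). With normexp the CLEC3A change was −1.27. Decorin (DCN), a small proteoglycan that binds collagen, was at 5.07, 5.20, 4.84, 4.87 and 4.67 at day 0 and at 3.71, 3.54, 3.39, 3.56 and 3.31 at day 8. Its fall of 1.43 ± 0.23 (adjusted p = 0.000147) left the days far apart. Lumican (LUM), its relative, fell by 1.30 ± 0.30 (adjusted p = 0.00378) and 5 of 5 other LUM probes passed. SPARC, a matrix protein that binds collagen, fell by 1.05 ± 0.16 (adjusted p = 6.97e-05), with 2 of 7 other probes passing and 7 of 7 sharing the sign. Biglycan (BGN) fell by 0.87 ± 0.23 (adjusted p = 0.00837). COMP, another cartilage matrix protein, rose by 1.56 ± 0.35 (adjusted p = 0.00301), and its second probe did not pass. FMOD (−0.37), COL2A1 (−0.66), COL5A2 (−0.03) and COL11A1 (−1.06) did not pass.

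Of 10 tested chemokines and chemokine receptors 6 fell and 0 rose (median −0.92), against 20.6% of the 514 named genes that fell. CXCL6, which attracts neutrophils, read −2.50, −2.82, −2.63, −4.04 and −3.52 at day 0 and −7.02, −6.99, −6.36, −9.69 and −9.03 at day 8. It was above background on 5 arrays at day 0 and on 2 at day 8, with a fitted fall of 4.71 ± 0.82 (adjusted p = 0.000346). Its size rests in part on readings at background, and with normexp the CXCL6 change was −2.03. CXCL8, the neutrophil chemoattractant interleukin 8, went from −6.25, −6.52, −6.61, −5.84 and −5.13 to −9.34, −8.93, −9.12, −9.56 and −7.69, with 4 and 1 arrays above background. The CXCL8 fall was 2.86 ± 0.67 (adjusted p = 0.00379), and with normexp it was −0.81 (adjusted p = 0.0503). For both genes every mare fell and the days did not overlap. CXCL10, a chemoattractant of T cells that interferon induces, was at −0.90, −1.74, −1.98, −1.23 and −1.53 at day 0 and at −3.28, −3.74, −2.99, −4.14 and −3.80 at day 8. It fell by 2.12 ± 0.31 (adjusted p = 7.48e-05), with 4 of 4 other probes passing. CXCL9, a further interferon target, fell by 1.17 ± 0.37 (adjusted p = 0.0241) and CCL5 by 1.03 ± 0.22 (adjusted p = 0.00167). CCL3 fell by 0.81 ± 0.25 (adjusted p = 0.0232) over 4 pairs, since a flagged spot was left out. CCL2 (−0.29), CCL8 (−0.65), CCL11 (0.02) and the receptor CCR2 (0.35) did not pass.

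Few genes of cytokines and innate defence passed, 1 higher and 1 lower of 19 (median −0.27). GNLY, granulysin of cytotoxic lymphocytes, was at −0.14, 1.28, 0.45, −0.45 and 1.07 at day 0 and at −1.25, −1.29, −1.27, −1.46 and −1.13 at day 8. The mares spread widely at day 0 and were close together at day 8, and the fall was 1.72 ± 0.25 (adjusted p = 5.20e-05). SAA, whose product is serum amyloid A of the acute phase, rose by 4.47 ± 1.24 (adjusted p = 0.0119) from −7.28, −5.34, −5.63, −6.21 and −0.37 to −2.47, −1.19, 3.12, −1.25 and −0.70. The rise was present in 4 of 5 mares and absent in mare 5, the mare with the highest day 0 value, so the days overlapped. The SAA call ended without mare 3 (3.40, adjusted p = 0.0659) and with normexp (2.73, adjusted p = 0.0541). TNF (0.36), IFNG (−0.53), IL10 (−0.20), IL18 (−0.35) and the receptors TLR2 (0.23), TLR3 (−0.39) and TLR4 (0.12) did not pass. DEFB4B, a beta defensin, had a wide error (1.62 ± 1.18).

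Of 8 tested genes of the interferon response 3 fell and 0 rose (median −0.56), against 20.6% of the 514 named genes that fell. The falls were those of CXCL10, CXCL9 and OAS2, a sensor of double-stranded RNA (−0.98 ± 0.33, adjusted p = 0.0355). For OAS2, 5 of 5 other probes shared the sign and 0 passed. Among the members that did not pass were MX1 (−0.52), OAS1 (−0.36), OAS3 (−0.60) and EIF2AK2 (0.50). In antigen presentation CD40, a costimulatory receptor, fell by 0.89 ± 0.23 (adjusted p = 0.00816) with 4 of 4 other probes passing, and B2M fell, while CD74 (0.54) and the class I gene EQMHCC1 (0.56) did not pass (2 of 4 lower). ILT11A, a leukocyte immunoglobulin-like receptor, was among the largest falls, at −1.81 ± 0.51 (adjusted p = 0.013). TNFAIP6, a hyaluronan-binding protein induced in inflammation, fell by 1.72 ± 0.49 (adjusted p = 0.0138), and with normexp its change was −0.74 (adjusted p = 0.0741).

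SPI2, a serine protease inhibitor, differed widely between mares. It read −0.89, −0.80, −0.88, −1.06 and −0.44 at day 0 and −6.29, −5.46, −1.13, −6.40 and −3.86 at day 8. Mares 1, 2 and 4 dropped steeply, mare 5 less, and mare 3 hardly moved. All 5 mares were lower at day 8, which the rule that named SPI2 required. The fall was 3.81 ± 0.88 (adjusted p = 0.0036), and the second SPI2 probe passed.

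**Figure D3:**
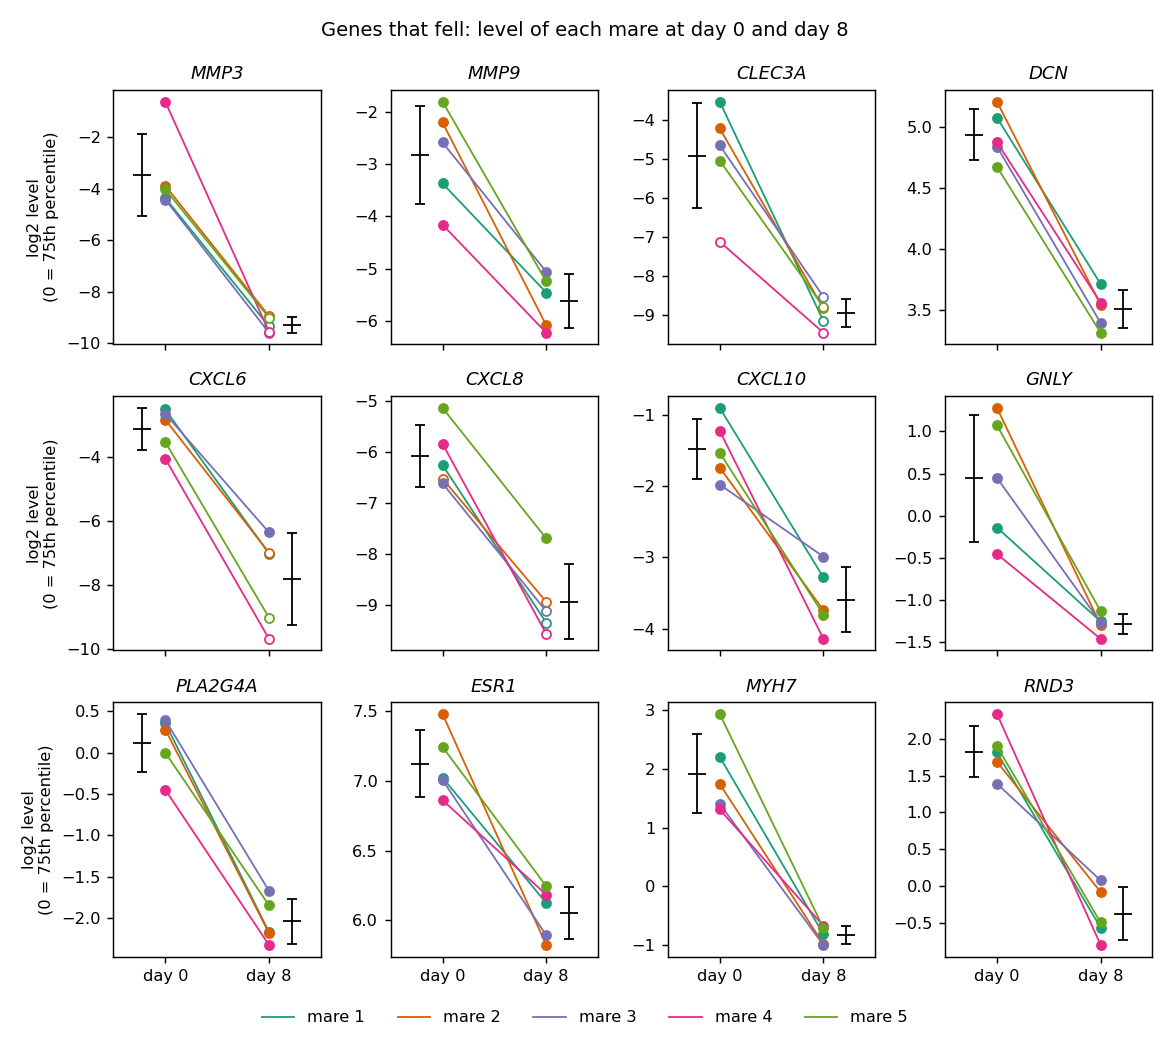
Log2 level relative to each array's 75th percentile (y axis, scale differs by panel) at day 0 and day 8 for 12 genes that fell, with 1 line for each of the 5 mares and filled points where the spot was well above background. Black marks give mean ± SD (n = 5). MMP3 and CLEC3A have open points on all 5 arrays of day 8, and the day 0 value of mare 4 stands apart in MMP3.

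In the list of blood vessel growth and tone EDN2 and EDNRA fell and VEGFA rose. EDN2, which encodes an endothelin, a vasoconstrictor peptide, fell by 1.55 ± 0.38 (adjusted p = 0.00502), and EDNRA, a receptor of this family, by 1.57 ± 0.33 (adjusted p = 0.00185). VEGFA, the main growth factor of blood vessels, rose by 1.28 ± 0.32 (adjusted p = 0.00664) with 9 of 9 other probes passing, from a range of −6.20 to −5.05 to one of −4.45 to −3.84. The VEGFA call ended without mare 2 (adjusted p = 0.054) and with normexp, where the change was 0.21 (adjusted p = 0.446). EDNRB (−0.72), NOS2 (0.44), NPPA (0.29) and SERPINF1 (−0.30) did not pass, which left 1 higher and 2 lower of 7 (median −0.30).

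Among 11 adhesion and junction genes 3 rose and 2 fell (median 0.02). GJB1, a connexin of gap junctions, rose by 1.84 ± 0.27 (adjusted p = 7.07e-05), ITGA2B, an integrin subunit of platelets, by 1.18 ± 0.23 (adjusted p = 0.000904) and VCAM1, which binds leukocytes, by 0.67 ± 0.18 (adjusted p = 0.0102). CD44, the hyaluronan receptor, fell by 1.27 ± 0.23 (adjusted p = 0.000472) and CADM1 by 1.04 ± 0.24 (adjusted p = 0.00347). In the list of actin, myosin and contraction 3 of 7 fell and 0 rose (median −0.38), against 20.6% of the 514 named genes that fell. MYH7, a slow muscle myosin heavy chain, was at 2.20, 1.74, 1.40, 1.31 and 2.93 at day 0 and at −0.81, −0.98, −0.99, −0.67 and −0.71 at day 8, and fell by 2.75 ± 0.39 (adjusted p = 5.18e-05). RND3, which loosens actin fibres, went from 1.81, 1.69, 1.39, 2.34 and 1.90 to −0.56, −0.08, 0.08, −0.80 and −0.49, by 2.20 ± 0.28 (adjusted p = 1.37e-05). Neither gene had overlapping days, and both other MYH7 probes passed. TPM3, a tropomyosin, had −0.38 ± 0.13 (adjusted p = 0.043), with 0 of 3 other probes passing.

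Of 4 tested WNT genes 2 fell (median −0.66), against 20.6% of the 514 named genes. They were FRZB, a secreted WNT antagonist, by 0.97 ± 0.22 (adjusted p = 0.003) and RSPO3, which amplifies WNT signals, by 1.04 ± 0.34 (adjusted p = 0.0299). RARB, a retinoic acid receptor, fell by 1.20 ± 0.23 (adjusted p = 0.000855) and RBP4 (−0.78 ± 0.48) did not pass. Among 6 transporters the chloride channel CFTR fell by 1.08 ± 0.34 (adjusted p = 0.0252), the sodium channel SCN4A by 0.67 ± 0.23 (adjusted p = 0.0392), and the calcium pump ATP2A2 rose by 0.50 ± 0.17 (adjusted p = 0.0356), with a median of 0.15. CASP1, which processes interleukin 1, fell by 0.88 ± 0.25 (adjusted p = 0.0125) while MCL1 did not pass (−0.14). In the list of kallikreins and serine protease inhibitors, which does not hold SPI2, 0 of 4 tested members passed in limma, and KLK1E2 was the 1 member with an unadjusted p under 0.05 (0.025). Outside the lists, the large changes were rises of CTTNBP2, a cortactin-binding protein (2.67 ± 0.21, adjusted p = 1.42e-07), FAM133B (4-fold, adjusted p = 2.44e-07) and PPAT, the first enzyme of purine synthesis (2.02 ± 0.38, adjusted p = 0.000659), and a fall of PIM1, a kinase induced by cytokines (−1.87 ± 0.34, adjusted p = 0.000566).

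**Figure D4:**
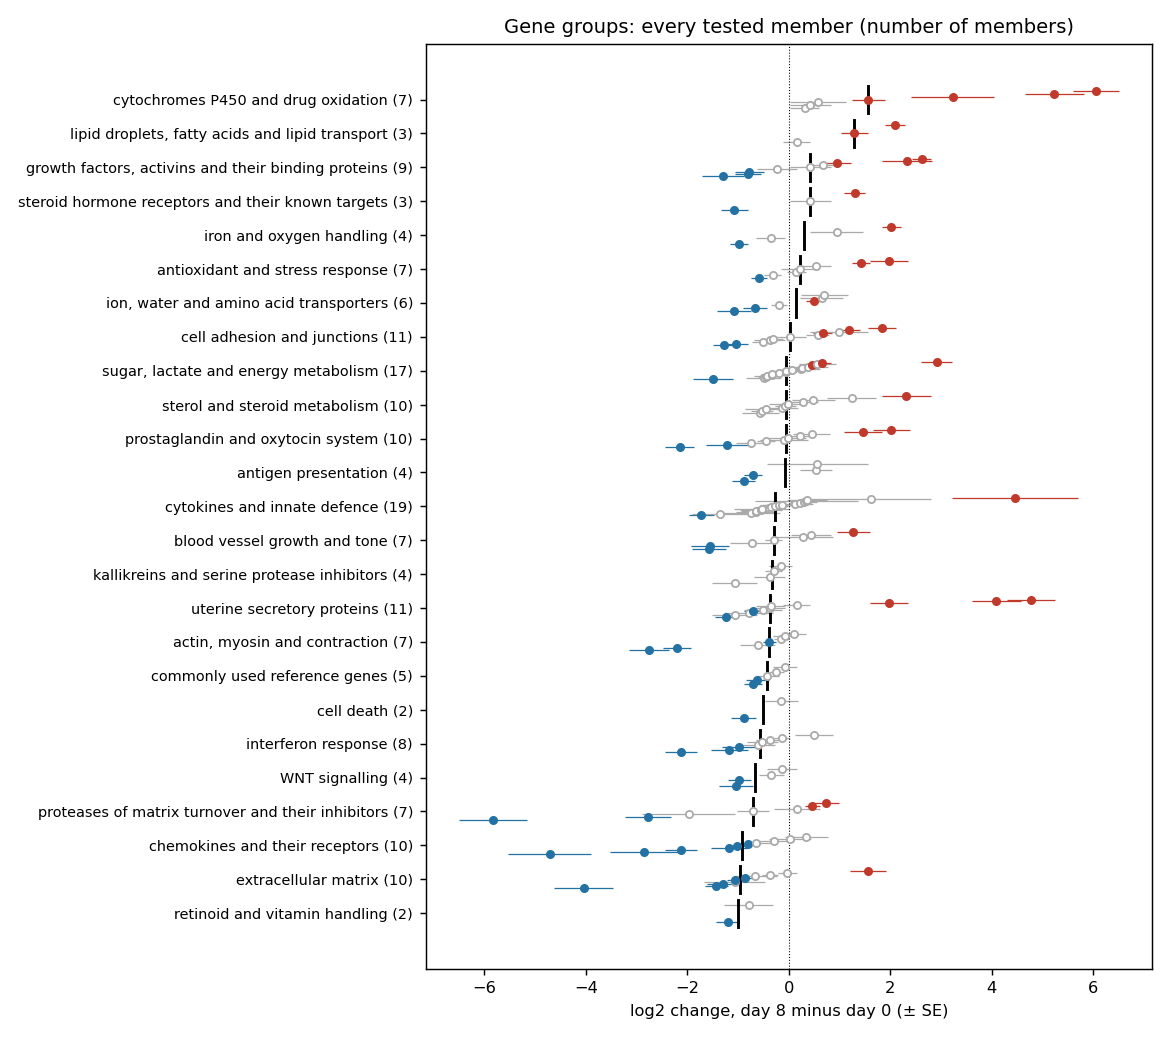
Log2 change from day 0 to day 8 (x axis, ± SE) of every tested member of 25 gene lists, ordered by their median (black bar), with filled points for genes that passed the test and open points for those that did not. Cytochromes P450 have the highest median with at least 7 members (1.57), and chemokines (−0.92) and extracellular matrix (−0.96) the lowest.

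Markers of the cell types in a biopsy were few on the array under a gene name. Both stromal fibroblast markers, DCN and LUM, fell, as given above. Of 4 markers of T and NK cells GNLY and CCL5 fell, and CD2 (−0.11 ± 0.25) and GZMB (0.14 ± 0.24) did not pass. Of 2 macrophage markers CD68 fell by 0.93 ± 0.27 (adjusted p = 0.0166) and CD14 did not pass (−0.64 ± 0.29, adjusted p = 0.118). The mast cell tryptase TPSB2 rose by 1.47 ± 0.34 (adjusted p = 0.00323), a change of 1.71 within the slide of mare 5 and of −0.56 between mares 1 and 4 on their slide, and its call ended with no replicate block (adjusted p = 0.24). FCER1A, another mast cell marker, did not pass (−0.08 ± 0.25). The epithelial marker ESRP1 (−0.22 ± 0.16), the endothelial PECAM1 (−0.31 ± 0.19), the smooth muscle marker TAGLN (−0.61 ± 0.34) and the ciliated cell gene DYDC1 (−0.66 ± 0.35) did not pass. The marker lists of B cells, neutrophils, red cells and dividing cells had 0 members with a named probe. The haemoglobin gene HBA2, which is on none of the lists and was looked up afterwards, did not pass (−0.38 ± 0.24, adjusted p = 0.267). The part of the cell makeup in the changes of matrix genes, chemokines and GNLY was not tested. Of 5 genes often used as references, EEF1A1 (−0.62 ± 0.22, adjusted p = 0.0485) and B2M fell, and ACTB (−0.07 ± 0.24), UBB (−0.24 ± 0.16) and YWHAZ (−0.43 ± 0.23) did not pass (median −0.43).

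Several calls lay close to the threshold and rested on few arrays. In 15 fits that each left out 1 array or 1 mare, 50 of the 76 called genes kept their call every time and 26 lost it at least once. TPM3 and EEF1A1 lost it in 12 fits each (adjusted p up to 0.168 and 0.183), and ATP2A2, PLA2G2A and SCN4A in 11 each (0.165, 0.217 and 0.19). TIMP3 lost it in 10 (up to 0.145), BSG and CFTR in 9 (0.112 and 0.149), and BDNF, CXCL9, IGF2 and RSPO3 in 8 (0.156, 0.156, 0.173 and 0.169). OAS2 lost it in 7 (up to 0.201), each time without mare 1 or 5 or one of their arrays or without the day 8 array of mare 4. CD68 lost it without mares 1 and 2, the day 0 array of mare 2 or the day 8 array of mare 4 (up to 0.0829), and ILT11A without mares 1, 2 and 5 or the day 8 array of mare 4 (up to 0.0907). LDHB (0.0707) and VCAM1 (0.0543) lost it without mare 2, and CD40 (0.0551) and TNFAIP6 (0.0847) without mare 5. CASP1 did so without mare 1 or 2 (up to 0.0651), PPARGC1A without mare 2 or 5 (0.062) and TXN without mare 4 or 5 (0.0567). These genes kept their direction in all 15 fits. CCL3 and MET, given with their lists, lost their call in 5 and 12 of these fits (adjusted p up to 0.164 and 0.21). With the slide block the MET change was −0.031 (adjusted p = 0.974), and its call also ended with scan day as a block, quantile normalization, median scaling and normexp. BGN and CCL3 lost their calls with the slide block too (adjusted p = 0.402 and 0.0601).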

How the data were processed

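The authors deposited 1 scanner file per array (Agilent Feature Extraction 10.7.3.1, per the submitters' processing notes) with a processed intensity per spot, background-subtracted and spatially detrended per the file headers. From these intensities log2 values were computed here, each array's 75th percentile was subtracted, flagged outlier spots were left out, and spots of a probe were averaged. The 5 mares appear on every day under the same number, which pairs the samples. Deviations from the day means correlated at a median r of 0.15 within a mare (range 0.04 to 0.44) and −0.08 between mares (range −0.39 to 0.26). These ranges overlapped, and the highest r within a mare was that of mare 5, whose arrays of both days lay on 1 slide. limma 3.58.1 (R 4.3.3) fitted day and mare on all 25 arrays, which share 1 estimate of the spread, and p-values were adjusted over the 35771 probes above background on at least 4 of 5 arrays of some day. Changes are means of within-mare differences. The SE beside them is the moderated one of the fit on all 25 arrays, not that of the 5 differences alone. Fitted values of 274 probes rest on fewer than 5 pairs. Where no array of a day read a probe above background, its fold is a bound, computed against the lowest signal well above background on each of those arrays.

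Probes were named through RefSeq accessions (from a thoroughbred assembly, used for names only). Of 43603 probes 1307 matched 620 symbols, and none matched several. Each gene is given by its brightest tested probe, a rule set after values were seen, when choice among all probes had given CXCL8 an untested one. The arrays, members and lists were chosen with earlier results of these data known. Named genes are the 15 largest rises and 15 largest falls called in the same direction in 5 mares, up to 5 called members of each list, the hormone receptor list and the tested cell type markers. For the largest rises and falls, agreement between mares was thus required. Of the genes so chosen, the values of 1 are not reported here. The code of the fits was checked on simulated data with independent noise. These data held no mare, slide or brightness differences, so the check does not test the calls against such effects. Alternatives were no mare block, a slide or scan day block, other scaling, normexp (offset 50) with marked local backgrounds replaced, other filters, and leaving out arrays or mares. Normexp without replaced backgrounds was not run. Interval estimates cover 5 mares, whose number limits the precision.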

Additional observations from a re-analysis of the deposited data

Results flagged for a closer look

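In 17 sets of 5 arrays 1 array lay apart from the other 4, judged by its gap to the nearest array as a share of the whole range against Dixon's critical value of 0.71. For independent sets of normally spread values chance marks about 1 in 20. Among 201 sets examined here 8.46% were marked. The sets share the same arrays, and their genes were largely chosen by their change, so these shares cannot be compared as a test. At day 0 the array of mare 4 stood apart in 5 genes. It was highest in MMP3 (ratio 0.859) and TAGLN (0.8418) and lowest in CLU (0.7219), PTGES (0.752) and KIR3DL (0.7789), a receptor of NK cells. The day 0 array of mare 5 was highest in SAA (0.7186).

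At day 8 the array of mare 2 was highest in EEF1A1 (0.8918) and SPARC (0.7147) and lowest in ESRP1 (0.7577). The array of mare 3 was lowest in CPT1A (0.8889) and GJB1 (0.7911). The array of mare 4 was lowest in CD68 (0.7354), PECAM1 (0.7802), RARB (0.8224) and LMNA (0.7581). The array of mare 5 was highest in ANXA1 (0.9051), at 3.92 against 3.30 for the next array, and lowest in LOC100061179 (0.8531), at 1.32 against 2.83. Without the array that stood apart the SAA change was 5.24, that of MMP3 −5.05, that of KIR3DL −1.87 and that of LOC100061179 10.60.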

How the results depend on the processing

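The count of 9319 called probes was 2422 with the slide as a block, 4906 with 1 probe per target (20627 tested), 4464 at a 2-fold minimum, 5952 to 9094 without replicate 1 to 5 (mares) and 7343 to 10037 without 1 array. With no replicate block, so without the pairing by mare, it was 7858, and 12 of the 76 named calls were lost. Of the 76, 20 were lost with scan day as a block, 19 without mare 2 and 18 without mare 5. Scan day as a block gave 6505, each array's brightness as a covariate 8493, the 10 arrays alone 7209, quantile normalization 9755 and median scaling 9044. Normexp gave 8511, with 34.4% higher against 46.5% in the main analysis and a median change of all probes of −0.22 against −0.03. It gave smaller changes for many genes, among them CYP3A97, CYP3A89, LGB1, MMP3, CLEC3A and CXCL6, printed beside them. Others were MMP9 (−1.78), SPI2 (−2.72), EDNRA (−0.94) and COMP (0.93). Some changes were slightly larger, such as that of P19 (4.18). INHA alone turned sign (−0.013, with normexp). Of the 9319 calls, 3 had the opposite sign with the slide block and 315 with normexp. The causes were not tested. Dim probes limit the precision: a gene below background on a day has only a bound.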

Other observations

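Further named genes outside the lists are given here, picked after their values were seen. Falls that kept their call in every alternative tried were those of SPRED1, a brake on growth factor signalling through MAP kinase (−1.67 ± 0.23, adjusted p = 3.24e-05 by limma), ANGPTL2, a secreted angiopoietin-like protein (−1.37 ± 0.16, adjusted p = 8.36e-06), and TMSB10, an actin monomer binding thymosin (−1.34 ± 0.21, adjusted p = 0.00011, with 4 of 4 other probes passing). SPRED1 levels ranged from 0.37 to 0.97 at day 0 and from −1.41 to −0.81 at day 8, with no overlap. SCX, a transcription factor of tendon and ligament cells, fell by 1.44 ± 0.26 (adjusted p = 0.000469, with 4 of 4 other probes passing), CDH13, a cadherin without a cytoplasmic tail, by 1.36 ± 0.29 (adjusted p = 0.00169) and ANXA1, an annexin that dampens inflammation, by 0.96 ± 0.18 (adjusted p = 0.000695). These 3 lost their call only with the slide block.

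The nuclear lamina gene LMNA fell by 0.97 ± 0.25 (adjusted p = 0.00705) and KIR3DL by 1.48 ± 0.33 (adjusted p = 0.00278). KIR3DL was above background on 4 arrays at day 0 and 2 at day 8. Among rises, ATP6V0C, a subunit of the proton pump of acidic vesicles, changed by 1.08 ± 0.20 (adjusted p = 0.000648) with 4 of 4 other probes passing, and kept its call in every alternative tried. DDIT4, a stress-induced inhibitor of mTOR (0.77 ± 0.21, adjusted p = 0.0104), and HEY1, a target of Notch (0.75 ± 0.21, adjusted p = 0.0142), lost their calls without 1 or more of the mares. LMNA lost its call without mare 2, DDIT4 without mare 2 or 5 and HEY1 without mare 3 or 5 (adjusted p up to 0.053, 0.0556 and 0.0939). With the slide block LMNA, DDIT4, HEY1 and KIR3DL lost their calls (adjusted p = 0.32, 0.394, 0.056 and 0.258), and DDIT4 and HEY1 also with scan day as a block.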
